A study of Mus musculus with 4 samples.

Results

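The 10 genes described here write or remove the repressive chromatin and DNA methylation marks of cultured neural progenitors. They are the core of Polycomb repressive complex 2 (*Ezh1*, *Ezh2*, *Eed* and *Suz12*), the DNA methyltransferases with their hemimethylation reader (*Dnmt1*, *Dnmt3a*, *Dnmt3b* and *Uhrf1*) and the TET dioxygenases *Tet1* and *Tet3*. They were chosen by symbol, and all 10 were found among the 21091 entries of the deposited tables. All 10 also averaged 1 FPKM or more over the libraries, the minimum that 12449 entries passed. FPKM counts the fragments of a gene per kilobase of its length and per unit of mapped fragments, so that levels of different genes can be set beside each other.

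Progenitors of C57BL/6 embryos were taken from the brain at embryonic day 11 (E11) or 14 (E14) and grown in suspension with EGF and FGF for 3 days before total RNA was extracted. At each stage there was 1 library of control cells (CTL, labelled WT) and 1 library of *Stat3* conditional knockout cells (*Stat3* cKO), 4 libraries in all. In the cKO, Cre under the Nestin promoter and enhancer recombines a floxed *Stat3* in neural progenitors and their progeny, so that cells of other origin keep the gene. The RNA-seq methods call the control wild-type, whereas the animal methods describe control embryos that carry Nestin-Cre and 1 floxed allele, so whether all groups carried Cre cannot be told. How many embryos were pooled per library is not stated. With 1 library per group no spread between replicates exists, no test between groups was made, and every ratio compares single libraries.

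PRC2 adds methyl groups to histone H3 at lysine 27 (H3K27) and thereby keeps developmental genes silent, with *Ezh2* the catalytic subunit of dividing cells and *Ezh1* its paralogue, better known from cells that divide little. *Eed* binds the mark that is already there and stimulates the enzyme, and *Suz12* holds the complex together. *Dnmt1* copies the methylation of the parental DNA strand onto the new strand at replication, guided by *Uhrf1*, while *Dnmt3a* and *Dnmt3b* methylate sites anew. The TET enzymes oxidise methylcytosine, the first step of its removal. In the developing cortex some of these enzymes are known for timing the passage of progenitors from neuron production to glia production.

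The libraries were first checked for the targeted gene and for cell type markers. *Stat3* had 7.41 FPKM in CTL against 6.74 in *Stat3* cKO at E11, and 27.6 against 9.55 at E14. Relative to CTL, the cKO stood at 0.346 times (E14) and 0.911 times (E11). At E11 the transcript level therefore hardly separated the library labelled *Stat3* cKO from CTL, and an FPKM over the whole gene does not show whether the floxed exons were lost. The paper states that this Cre line knocks out *Stat3* in progenitors by E14. It presents genotyping and a western blot of progenitors, without the stage of those cells. All 10 neural progenitor markers passed the minimum, with *Sox2* between 128 and 284 FPKM. None of 6 microglial and leukocyte markers passed it. Of 6 mesenchymal markers, all passed, and their FPKM summed to 1185 and 1092 in the E11 libraries against 12.8 and 8.71 in the E14 libraries. Sums of glial markers went the other way: 6 astrocyte markers summed to 23.0 (CTL) and 20.3 (cKO) FPKM at E11 against 282 and 388 at E14, and 6 oligodendrocyte lineage markers to 71.5 and 92.7 against 563 and 539. Not every glial marker did: *Slc1a2* and *Pdgfra* were lower at E14 in both genotypes, and *Mbp* in CTL. Of 5 intermediate progenitor markers, 5 (CTL) and 4 (cKO) were lower at E14. Of 10 neuronal markers, 8 (CTL) and 7 (cKO) were higher, and of the 10 progenitor markers 5 and 6. Such marker differences go with every E14 to E11 ratio below, and their part in them was not tested. In bulk RNA, fewer cells of a type and less RNA per cell cannot be told apart. *Uty* and *Ddx3y*, on the Y chromosome, were listed at 0 in both E11 libraries, at 0.0412 and 0.0569 FPKM in E14 CTL, but at 14.7 and 25.1 FPKM in the *Stat3* cKO of that stage. Genotype and Y-linked transcripts thus cannot be told apart at E14. Read counts are not given, and the lowest nonzero values gave relative depths of 1.07 (CTL) and 0.841 (cKO) at E11 and of 0.940 (CTL) at E14, with the remaining library set to 1.

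The promoters of the members that passed a fold threshold together in at least 1 comparison are shown first, so that the values can be read beside the sequence. *Uhrf1* and *Dnmt3b* did so between genotypes at E11, and *Dnmt3a*, *Tet3* and *Ezh1* between stages in CTL. *Dnmt1*, the partner of *Uhrf1*, was added after its values had been seen. The windows are from RefSeq on GRCm38.p6 and run from 250 bases before to 50 bases after the start, in the direction of the gene. Where a gene had several windows, the one with the most CpG dinucleotides is given. Capitals mark a match to either of the E2F words TTTCCCGC and TTTGGCGC or to the STAT word TTCNNNGAA, all searched on both strands. The windows are *Uhrf1* at chr17:56304063-56304362 (+), *Dnmt3b* at chr2:153649199-153649498 (+), *Dnmt3a* at chr12:3806910-3807209 (+), *Tet3* at chr6:83441629-83441928 (-), *Ezh1* at chr11:101226414-101226713 (-) and *Dnmt1* at chr9:20952574-20952873 (-).
Uhrf1: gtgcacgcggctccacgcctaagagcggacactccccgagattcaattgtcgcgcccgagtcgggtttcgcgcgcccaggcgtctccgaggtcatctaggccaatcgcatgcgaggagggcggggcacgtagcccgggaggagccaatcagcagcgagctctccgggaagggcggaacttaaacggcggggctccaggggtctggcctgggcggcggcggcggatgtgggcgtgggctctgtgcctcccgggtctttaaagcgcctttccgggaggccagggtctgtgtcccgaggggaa
Dnmt3b: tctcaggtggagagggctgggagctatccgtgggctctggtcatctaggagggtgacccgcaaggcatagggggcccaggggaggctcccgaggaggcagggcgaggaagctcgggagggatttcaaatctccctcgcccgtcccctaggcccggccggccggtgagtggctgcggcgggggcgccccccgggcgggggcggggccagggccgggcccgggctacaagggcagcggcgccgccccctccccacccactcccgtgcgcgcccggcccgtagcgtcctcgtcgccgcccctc
Dnmt3a: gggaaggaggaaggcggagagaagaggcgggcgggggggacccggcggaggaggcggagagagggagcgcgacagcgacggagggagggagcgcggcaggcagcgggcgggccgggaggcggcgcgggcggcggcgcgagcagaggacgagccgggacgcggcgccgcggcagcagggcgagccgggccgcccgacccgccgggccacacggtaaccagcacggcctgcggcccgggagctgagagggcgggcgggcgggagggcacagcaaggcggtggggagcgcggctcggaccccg
Tet3: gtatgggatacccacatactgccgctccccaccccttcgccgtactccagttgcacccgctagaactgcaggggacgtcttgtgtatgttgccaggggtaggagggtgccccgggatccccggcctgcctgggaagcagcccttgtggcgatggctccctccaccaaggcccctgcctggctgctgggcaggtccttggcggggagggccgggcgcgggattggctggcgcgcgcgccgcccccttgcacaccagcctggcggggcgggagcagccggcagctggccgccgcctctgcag
Ezh1: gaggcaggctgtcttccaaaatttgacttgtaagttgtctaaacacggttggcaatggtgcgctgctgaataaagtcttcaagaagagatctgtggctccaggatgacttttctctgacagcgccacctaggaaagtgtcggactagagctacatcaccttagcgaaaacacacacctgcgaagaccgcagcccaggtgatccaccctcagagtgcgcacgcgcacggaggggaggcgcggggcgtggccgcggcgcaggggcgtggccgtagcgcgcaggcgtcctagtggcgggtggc
Dnmt1: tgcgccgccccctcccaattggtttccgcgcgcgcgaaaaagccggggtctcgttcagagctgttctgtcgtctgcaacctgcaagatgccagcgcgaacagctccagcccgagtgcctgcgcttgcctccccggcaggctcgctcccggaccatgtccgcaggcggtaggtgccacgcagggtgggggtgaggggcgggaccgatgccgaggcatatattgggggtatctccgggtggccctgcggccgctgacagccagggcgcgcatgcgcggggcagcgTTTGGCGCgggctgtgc

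All 10 members had a window, 15 windows in all. These held a median of 23 CpG dinucleotides, from 2 to 47, against a median of 7 over 32851 windows of 27025 genes. An E2F word stood in 1 window each of *Ezh2*, *Suz12* and *Dnmt1*, and 1.57% of all windows held one. In *Dnmt1* it lay just after the start, as the capitals show, and none was found in either window of *Uhrf1*. The STAT word, present in 8.30% of all windows, was in none of the members' windows. A match is a stretch of letters and not a binding site, and the lack of one says nothing of the factor. The gene positions given below are those listed in the deposited tables, whose build is not named beside the values, and they are not to be read against GRCm38.p6.

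The catalytic subunits of PRC2 were present at very different levels. *Ezh2* (chr6:47480272-47545029) had 37.2 FPKM in CTL against 47.6 in *Stat3* cKO at E11, and 35.4 against 31.8 at E14. *Ezh1* (chr11:101052428-101087764) had 4.36, 4.49, 1.92 and 2.86 FPKM in the same order. *Ezh2* exceeded *Ezh1* by 8.53 times in CTL and 10.6 times in *Stat3* cKO at E11, and by 18.4 and 11.1 times at E14. The widest gap, in E14 CTL, came with the lowest *Ezh1* level of the 4 libraries and not with a high *Ezh2* level. *Ezh1* was 2.28-fold lower at E14 than at E11 in the controls and 1.57-fold lower in *Stat3* cKO.

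The scaffold and reader subunits were close to each other in level. *Eed* (chr7:97103163-97129486) had 22.6 FPKM in CTL against 25.3 in *Stat3* cKO at E11, and 28.4 against 19.06 at E14. *Suz12* (chr11:79806607-79847625) had 25.1, 26.98, 22.8 and 19.4 FPKM in the same order. Both, like *Ezh2*, had their lowest level in E14 *Stat3* cKO. The ratio of *Ezh2* to *Suz12* stayed between 1.48 and 1.76 over the libraries, and that of *Ezh2* to *Eed* between 1.247 and 1.88, so the core subunits other than *Ezh1* differed from each other by less than their common level differed from that of *Ezh1*.

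The maintenance pair shared the highest levels of the set with *Ezh2*. *Dnmt1* (chr9:20711649-20764332) had 39.4 FPKM in CTL against 46.7 in *Stat3* cKO at E11, and 61.0 against 41.2 at E14. *Uhrf1* (chr17:56442759-56462909), which reads hemimethylated DNA and brings *Dnmt1* to it, had 33.4, 59.3, 89.5 and 46.6 FPKM in the same order. Both peaked in E14 CTL, where *Uhrf1* stood at 2.68 times its E11 CTL level. *Dnmt1* stood at 1.18 times *Uhrf1* in E11 CTL and below it elsewhere, at 0.787, 0.682 and 0.883 times.

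The de novo enzymes differed in level by more than 10 times in every library. *Dnmt3a* (chr12:3806979-3914443), the main de novo enzyme of neural tissue, had 22.3 FPKM in CTL against 24.5 in *Stat3* cKO at E11, and 10.9 against 11.3 at E14. The locus of *Dnmt3a* overlaps another listed entry, *Gm10485*, and whether the counting used strand is not given. *Dnmt3b* (chr2:153475184-153513466), better known from the early embryo, had 1.15, 1.99, 0.905 and 1.05 FPKM. It was the lowest member in every library, and the number of fragments behind such low values is unknown. *Dnmt3l*, the catalytically inactive cofactor of the de novo enzymes, was at most 0.0143 FPKM and was listed at 0 in E11 *Stat3* cKO. The ratio of *Dnmt1* to *Dnmt3a* was 1.77 (CTL) and 1.91 (cKO) at E11, against 5.59 and 3.65 at E14, so that the balance between maintenance and de novo transcripts differed more between stages than between genotypes.

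The TET genes were low and differed less between genotypes than between stages. *Tet3* (chr6:83312367-83391672) had 7.78 FPKM in CTL against 8.09 in *Stat3* cKO at E11, and 3.13 against 3.09 at E14. *Tet1* (chr10:62267317-62342762) had 3.68, 4.34, 1.92 and 2.39 FPKM. Both E14 libraries lay below both E11 libraries for each gene, as for *Ezh1*, *Ezh2*, *Suz12*, *Dnmt3a* and *Dnmt3b*. *Tet2*, the paralogue that lost its CXXC domain to the neighbouring gene *Cxxc4* (also called *Idax*), had 9.10, 8.98, 4.64 and 5.57 FPKM and was the highest TET gene in every library. Summed, the 3 TET genes had 20.6 FPKM in CTL against 21.4 in *Stat3* cKO at E11, and 9.70 against 11.1 at E14.

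**Figure D1:**
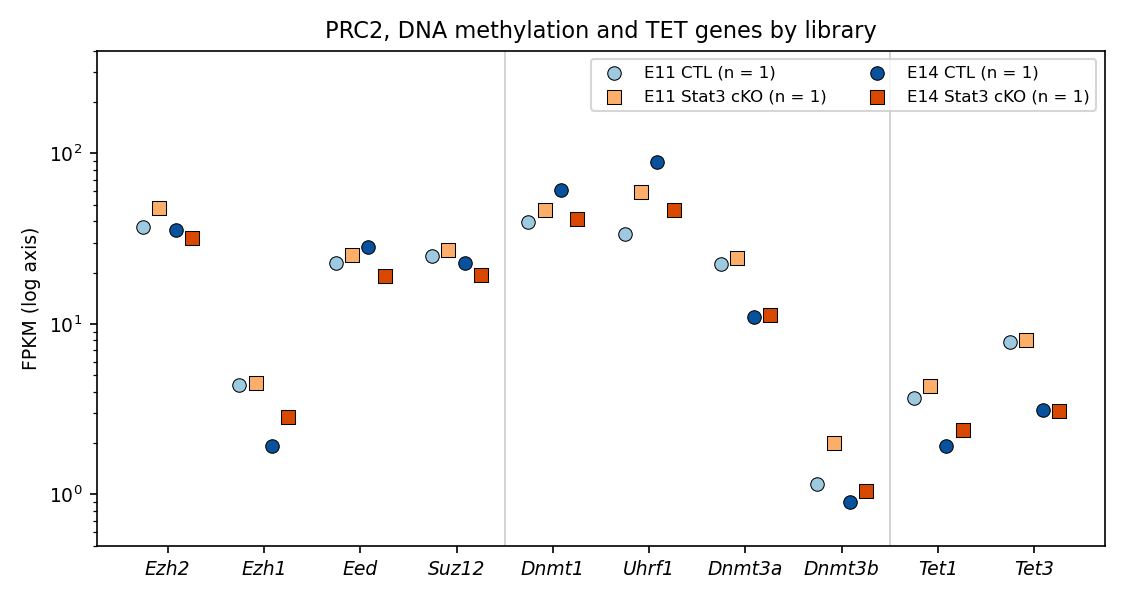
FPKM on a log axis for the 10 genes, with 1 point for each of the 4 libraries (n = 1 per group, no error bars). *Uhrf1* spans 33.4 to 89.5 FPKM, and for all members but *Uhrf1*, *Dnmt1* and *Eed* both E14 points lie below both E11 points.

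The order of the members by level was much alike in the libraries. *Dnmt1*, *Ezh2* and *Uhrf1* took the first 3 places in each, with *Dnmt1* first in E11 CTL and *Uhrf1* first in the other 3. *Eed* and *Suz12* followed, then *Dnmt3a* in place 6 and *Tet3* in place 7, and *Ezh1* and *Tet1* stood before *Dnmt3b* in place 10. *Eed* and *Suz12* changed places in E14 CTL only, and so did *Ezh1* and *Tet1*. No replicate shows by how much neighbours in this order must differ to be told apart.

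At E14, *Uhrf1* alone among the 10 members passed the 1.5-fold threshold between genotypes. It was 1.92-fold lower in *Stat3* cKO, from 89.5 to 46.6 FPKM (log2 ratio -0.94), and 2.10% of 12430 genes with a ratio were lower still. Over those genes, 7.67% were at least 1.5-fold lower and 5.82% at least 1.5-fold higher, so 1 of 10 members lower and 0 of 10 higher is near the background. *Eed* at 0.672 times CTL (28.4 and 19.06 FPKM) and *Dnmt1* at 0.675 times CTL (61.0 and 41.2 FPKM) lay just outside the threshold on the lower side, and both passed it with all libraries scaled to a common sum. *Ezh1*, at 1.49 times CTL, lay just outside on the upper side, and it passed once the all-gene median was set to 0 (log2 ratio 0.65). *Dnmt3a* and *Tet3* were at 1.03 and 0.985 times CTL, and their direction changed with the scaling. The median log2 ratio of the members was -0.09, against -0.08 over all genes, and 4 of 10 were above CTL, or 6 of 10 with upper-quartile scaling. Cell type markers also differed between these libraries. On the upper side of 1.5-fold in *Stat3* cKO were 3 of the 5 astrocyte markers past the minimum (median log2 ratio 0.80), 3 of 6 oligodendrocyte lineage markers, 2 of 5 intermediate progenitor markers and 3 of 10 progenitor markers, among them the Notch target *Hes5* with 124 and 294 FPKM. *Gfap*, the astrocyte marker under the minimum, had 0.901 FPKM in CTL and 0.186 in the cKO. Of 10 neuronal markers, 9 were below CTL and 0 passed the threshold (median -0.32). Of 6 mesenchymal markers, all low at E14, *Col3a1* (7.64 and 4.29 FPKM), *Lum* (0.977 and 0.3875) and *Twist1* (0.450 and 0.0353) passed on the lower side. *Pdgfrb* (0.625 and 1.58 FPKM) passed on the upper, and the erythroid *Hbb-y* was lower (1.88 and 0.852 FPKM). *Lum*, *Twist1*, *Pdgfrb* and *Hbb-y* passed the minimum through their E11 levels, so their E14 ratios compare low values. The part of these differences in the members' ratios was not tested.

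At E11, all 10 members had a genotype ratio above 1, as 61.8% of all genes did. With the all-gene median set to 0, 8 of 10 were higher, since *Ezh1* and *Tet3* crossed to the other side. *Uhrf1* was 1.77 times CTL, from 33.4 to 59.3 FPKM, and 0.531% of genes had a higher ratio. *Dnmt3b* was 1.72 times CTL, from 1.15 to 1.99 FPKM, but it has the lowest level of the set, and its ratio dropped under the threshold with a pseudocount of 1 (log2 ratio 0.47 in place of 0.78). These 2 of 10 members passed 1.5-fold on the upper side, where 2.18% of all genes did, and 0 of 10 on the lower side, where 3.66% did. *Ezh2* followed at 1.28 times CTL and *Dnmt1* at 1.19 times. The members' median log2 ratio was 0.20, against 0.06 over all genes. As given above, the *Stat3* transcript itself was 0.911 times CTL in this comparison. The embryonic globin *Hbb-y*, an erythroid marker, had 22.4 FPKM in CTL and 3.07 in the cKO. The progenitor markers *Nes* and *Hes5* and the oligodendrocyte lineage marker *Olig1* (1.64 and 2.845 FPKM) passed 1.5-fold on the upper side. On the lower side were the neuronal *Neurod6* (8.13 and 3.76 FPKM) and *Sox10* of the oligodendrocyte lineage. *Sox10* had only 0.215 and 0.134 FPKM here and passed the minimum through its E14 levels. The part of these marker differences in the members' ratios was not tested.

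**Figure D2:**
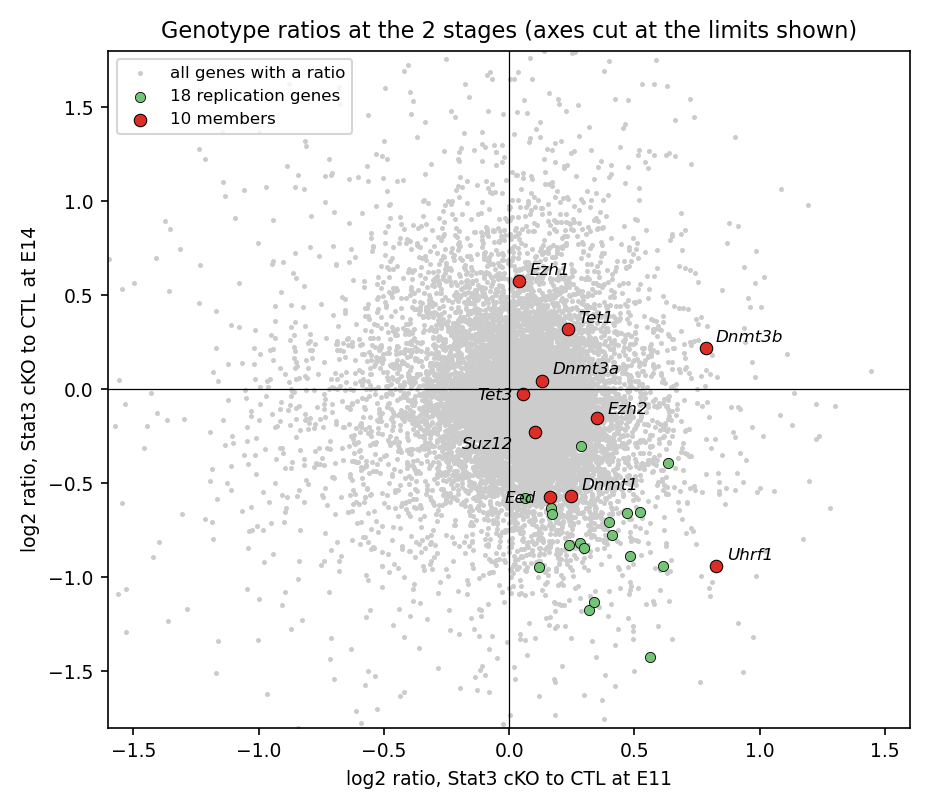
Each point is a gene, with its genotype ratio (log2, *Stat3* cKO over CTL) at E11 on the horizontal axis and at E14 on the vertical axis (1 library per group). The 10 members are red, the 18 replication genes green and all genes with a ratio grey, and *Uhrf1* lies at 0.83 and -0.94, in the corner where the green points lie.

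*Uhrf1* was thus higher in *Stat3* cKO at E11 and lower at E14. In terms of stage, it was 2.68 times its E11 level at E14 in CTL and 0.786 times in *Stat3* cKO. The stage ratio of *Stat3* cKO minus that of CTL came to -1.77 on the log2 scale, and 0.443% of 12419 genes had a lower value. For *Dnmt1* this difference was -0.81, for *Eed* -0.74, for *Dnmt3b* -0.57, for *Ezh2* -0.51 and for *Suz12* -0.33. *Ezh1* was the only member clearly on the other side, at 0.53, while *Dnmt3a*, *Tet1* and *Tet3* were within 0.09 of 0 and changed sign with the scaling. The members' median was -0.42, with 8 of 10 below 0, against a median of -0.12 over all genes, of which 7718 of 12419 were below 0. With the all-gene median set to 0 in each comparison, the members' median was -0.26 and 6 of 10 were below 0, and with upper-quartile scaling the median was -0.20. The genotype and stage ratios use the same 4 libraries, so they are views of 1 set of values, and the E14 CTL level of *Uhrf1* enters both.

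Genes of DNA replication were read beside *Uhrf1* and *Dnmt1*, whose transcripts are known to follow the S phase. Of 18 genes for licensing, clamp and nucleotide supply, 15 passed 1.5-fold on the lower side at E14, where 7.67% of all genes were, and their median log2 ratio was -0.80. At E11, 2 of 18 passed the threshold on the upper side (*Rrm1* and *Rrm2*, the ribonucleotide reductase subunits), against 2.18% of all genes, with a median of 0.33 against 0.06 over all genes. *Pcna*, the sliding clamp, had 187 FPKM in CTL against 249 in *Stat3* cKO at E11, and 575 against 336 at E14, and thus the same order of libraries as *Uhrf1* except that E14 *Stat3* cKO was above E11 *Stat3* cKO. Relative to *Pcna*, *Uhrf1* stood at 0.179, 0.238, 0.156 and 0.139. Of 14 mitotic genes, by contrast, 0 passed the threshold in either direction at E14, with a median of -0.05. Over all genes, 5.82% were higher and 7.67% lower there. At E11, 6 of 14 were at least 1.5-fold higher, against the same 2.18%, with a median of 0.57. The part of either list in the ratios of *Uhrf1* and *Dnmt1* was not tested.

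In CTL, 3 members were at least 2-fold lower at E14 than at E11 and 1 was at least 2-fold higher. *Tet3* was 2.48-fold lower, *Ezh1* 2.28-fold lower and *Dnmt3a* 2.04-fold lower, and *Tet1*, at 1.92-fold lower, lay just outside. With a pseudocount of 1, *Ezh1* (log2 ratio -0.88) and *Dnmt3a* (-0.97) no longer passed, and *Tet1* passed under 4 alternative scalings. *Uhrf1* was the 1 on the upper side, with *Dnmt1* next at 1.55 times. Over all genes, 12.5% were at least 2-fold lower and 14.6% at least 2-fold higher. The members' median log2 ratio was -0.25, against 0.21 over all genes. Both depended on the scaling, at -0.62 against -0.16 with upper-quartile scaling and -0.80 against -0.34 with a common library sum. *Uhrf1* passed 2-fold in the values as deposited (log2 ratio 1.42) and not with all libraries scaled to a common sum (0.86), nor when that sum left out small RNA entries (0.94).

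In *Stat3* cKO, all 10 members were lower at E14 than at E11. *Tet3* was 2.62-fold lower and *Dnmt3a* 2.17-fold lower, and these 2 of 10 passed 2-fold where 11.7% of all genes did. The count depended on the scaling. It was 4 of 10 with upper-quartile scaling and 10 of 10 with a common library sum, which moved the all-gene median log2 ratio to -0.80. On the upper side 0 of 10 passed, where 10.1% of all genes did. *Dnmt3b* followed at 1.89-fold lower, *Tet1* at 1.81-fold lower and *Ezh1* at 1.57-fold lower, and *Dnmt1* was nearest to no difference at 0.881 times. Relative to genes of like length, 9 of 10 were lower and *Dnmt1* was level. The median log2 ratio was -0.62 for the members and 0.06 for all genes, 53.3% of which were higher at E14.

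**Figure D3:**
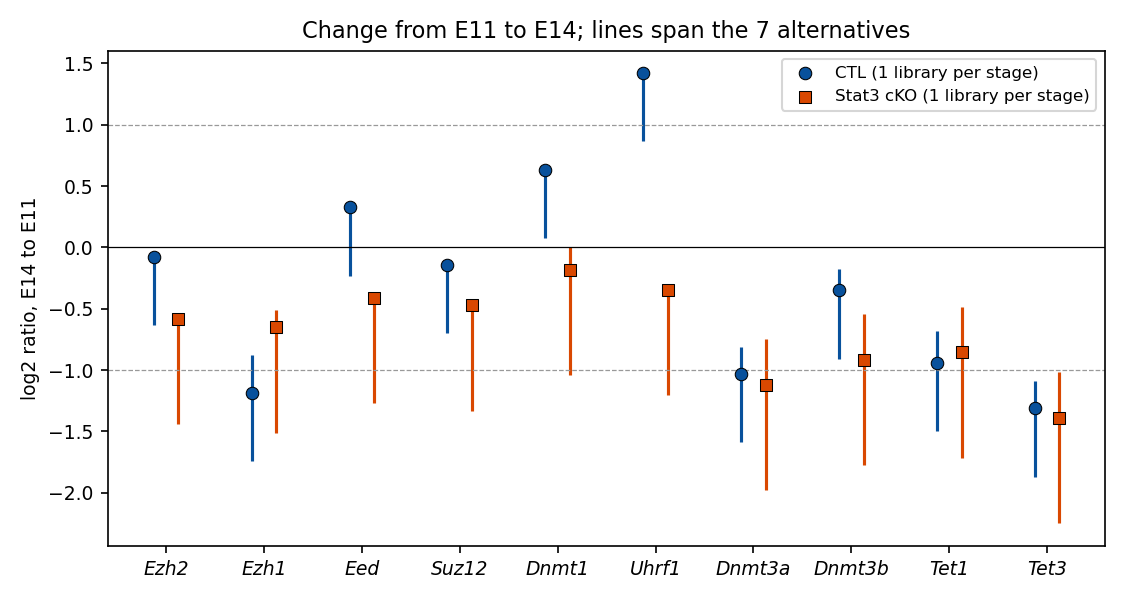
Log2 ratio of E14 to E11 for each member in CTL (circles) and in *Stat3* cKO (squares), 1 library per stage, with lines from the lowest to the highest value under 7 alternatives (pseudocounts and scalings) and dashed lines at 2-fold. All members but *Uhrf1*, *Dnmt1* and *Eed* stay below 0 in both genotypes throughout, while *Uhrf1* is above 0 in CTL and below 0 in *Stat3* cKO.

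The members that were lower at E14 in both genotypes include the longest transcripts of the set, and length went with the stage ratio over all genes. The longest transcript listed for *Dnmt3a* has 9685 bases, that of *Tet3* 10904 and that of *Tet1* 14369 (GENCODE M21, which gave a length for 93.7% of the genes tested). Among all genes in CTL, the median of this ratio (log2, E14 over E11) went from 0.56 for 1291 genes under 1500 bases to -0.22 for 1158 genes of at least 7000 bases, and in *Stat3* cKO from 0.41 to -0.37. Of the longest class, 19.6% (CTL) and 19.0% (cKO) were at least 2-fold lower at E14. Relative to the median of its length class, *Tet3* stayed past 2-fold in both genotypes (-1.09 in CTL and -1.02 in *Stat3* cKO). *Dnmt3a* did not (-0.81 and -0.74), nor did *Tet1* (-0.72 and -0.48). *Ezh1*, a transcript of 4207 bases, was at -1.38 and -0.66 relative to its class. The genotype ratios showed no such course, with class medians between -0.09 and -0.07 at E14 and between 0.03 and 0.07 at E11. The part of length in the stage ratios was not tested beyond these values.

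**Figure D4:**
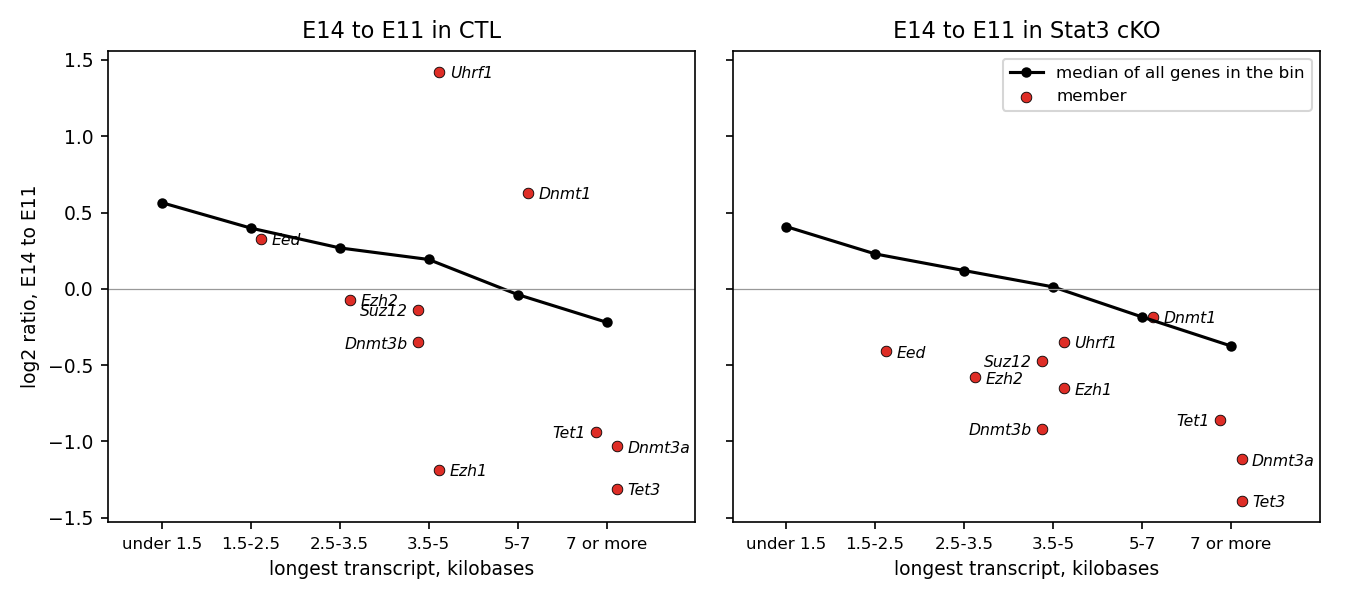
Log2 ratio of E14 to E11 in CTL (left) and *Stat3* cKO (right) against classes of longest transcript length in kilobases. The black line joins the medians of all genes in each class, which fall from left to right, and the red points are the members, with *Tet3*, *Dnmt3a* and *Tet1* in the longest class below its median.

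The accessory subunits of PRC2, which steer the complex to its targets, were counted together with *Rbbp4* and *Rbbp7* as a list of 7. At E14, 2 of 7 passed 1.5-fold on the lower side in *Stat3* cKO, against 7.67% of all genes: *Rbbp7*, a histone chaperone on the X chromosome, at 143 FPKM for CTL and 89.5 for *Stat3* cKO, and *Phf19*, a Polycomb-like protein, at 3.17 and 2.08 FPKM. At E11, 0 of 7 passed in either direction, where 2.18% of all genes passed on the upper side and 3.66% on the lower. *Jarid2*, which recruits and stimulates PRC2, had 17.1 FPKM in CTL against 21.2 in *Stat3* cKO at E11, and 7.14 against 10.1 at E14. This gene was at least 2-fold lower at E14 in both genotypes, while *Phf19* was at least 2-fold higher in both. *Mtf2* and *Aebp2*, which mark alternative forms of the complex, were lower at E14 in both genotypes by less than 2-fold. *Rbbp4*, the paralogue of *Rbbp7*, stood between 82.3 and 112 FPKM.

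PRC1, the complex that reads H3K27 methylation and ubiquitinates histone H2A, was represented by 17 genes. At E14, 1 of 17 was at least 1.5-fold lower in *Stat3* cKO (*Pcgf5*, 6.83 FPKM against 4.07), near the 7.67% of all genes. Between stages, *Pcgf2* and *Cbx7* were at least 2-fold lower at E14 in both genotypes, with log2 ratios of -2.23 and -1.43 in CTL, and *Pcgf5* was higher in CTL (1.55). That is 2 of 17 on the lower side in each genotype, near the 12.5% (CTL) and 11.7% (cKO) of all genes. Over the 17 genes the stage ratios had medians of -0.18 (CTL) and -0.28 (cKO) on the log2 scale. The catalytic *Rnf2* was between 67.9 and 74.4 FPKM in the 4 libraries.

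Among genes that oppose PRC2, the Y-linked *Uty* alone passed the threshold between genotypes. *Kdm6b*, an H3K27 demethylase, had 3.40 FPKM in CTL against 2.92 in *Stat3* cKO at E11, and 0.719 against 1.07 at E14, at least 2-fold lower at E14 in both genotypes. *Kdm6a*, its X-linked paralogue, had 14.6, 14.4, 10.6 and 8.85 FPKM, and *Uty* is given above. Of 10 Trithorax group genes, whose complexes deposit the activating H3K4 mark, 0 passed 1.5-fold between genotypes at either stage. Over all genes, 5.82% were higher and 7.67% lower by that fold at E14, and 2.18% and 3.66% at E11, so this count is near the background. In CTL, 3 of 10 were at least 2-fold lower at E14 (*Mll2*, *Mll1* and *Setd1a*, log2 ratios -1.70, -1.36 and -1.04), against 12.5% of all genes, and *Dpy30* was higher (1.22). These ratios were not set against transcript length. *Mll2* and *Mll1* were so in *Stat3* cKO too.

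Among 5 further genes of DNA methylation, *Hells*, the remodelling helicase that opens chromatin to the methyltransferases, had the lowest ratio at E14. Its level was 23.1 FPKM in CTL against 29.4 in *Stat3* cKO at E11, and 35.7 against 13.3 at E14, a log2 ratio of -1.43 between genotypes at E14. *Mat2a*, which makes the methyl donor, also passed 1.5-fold there (70.0 and 45.6 FPKM), so that 2 of 5 were lower, against 7.67% of all genes. At E11, 0 of 5 passed, where 2.18% of all genes were higher and 3.66% lower. *Uhrf2*, the paralogue of *Uhrf1*, had 32.2, 35.98, 40.5 and 39.5 FPKM and passed no threshold, so the pattern of *Uhrf1* over the libraries was not seen in its paralogue. Of 7 methyl-CpG readers, 0 passed at E14, where 5.82% of all genes were higher and 7.67% lower. *Zbtb38* alone was lower at E11 (5.93 and 3.78 FPKM), as 3.66% of all genes were. None of the 7 passed 2-fold between stages. Over all genes, 14.6% were higher and 12.5% lower by that fold in CTL, and 10.1% and 11.7% in *Stat3* cKO.

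Partners of the TET enzymes and genes that repair oxidised bases formed a list of 14. At E14, 2 of 14 passed 1.5-fold on the upper side in *Stat3* cKO, against 5.82% of all genes. *Gadd45g*, linked to demethylation by repair, went from 26.5 FPKM (CTL) to 58.5 (cKO), and *Cxxc4* had 1.73 and 3.06 FPKM. At E11, *Neil3*, a glycosylase, was higher (log2 ratio 0.68) and *Gadd45a* lower (-0.93), 1 of 14 on each side, against 2.18% and 3.66% of all genes. Between stages in CTL, *Idh1*, which makes the TET cofactor, was higher at E14 (146 and 347 FPKM), and *Gadd45a*, *Cxxc4* and *Gadd45b* were lower by 2-fold or more. That is 1 of 14 higher and 3 of 14 lower, near the 14.6% and 12.5% of all genes. In *Stat3* cKO, *Neil1* was higher (1.05) and *Gadd45a* lower (-1.05), 1 of 14 on each side, near the 10.1% and 11.7% of all genes.

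Genes with the profile most like that of a member were searched among 9191 genes that averaged 5 FPKM or more and had no 0, for the members whose highest library was at least 2 times the lowest. Likeness was the Euclidean distance between log2 profiles over the 4 libraries, each centred on its own mean. Nearest to *Uhrf1* were *Hsd17b7* (distance 0.17), *Rrm2* and *Peg12* (both 0.19). *Rrm2* had 59.9, 91.7, 137 and 71.4 FPKM in the library order used above. Among the nearest to *Dnmt3a* were *Rdh10* (0.06, with 13.4, 14.2, 6.57 and 6.94 FPKM) and *Efnb3* (0.07). Nearest to *Tet3* were *Armcx4*, *Phf21b* and *Zcchc11* (0.08 each), to *Tet1* *Vasn* (0.05), *Fzd7* and *D4Wsu53e*, and to *Ezh1* *Grn* (0.06), *Serinc2* and *Tcn2*. For *Dnmt3b* the closest, *Myo9a* and *Arhgap11a*, were at 0.18. A profile has only 4 points, so many genes lie near any one of them.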

How the data were processed

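RNA-seq was analysed for 4 libraries, 1 per group. The authors checked reads with FastQC, aligned them with the Tuxedo tools (TopHat) and estimated expression with Cufflinks. The deposited values are FPKM, used here as deposited. The submitters' processing notes name Bowtie 0.12.2 and the builds mm8 and mm9, without saying which step used which. Strand use in counting is not given in the sources used here.

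The members and gene lists were chosen with earlier results of these data known. Entries averaging 1 FPKM or more were compared by plain ratios, and a 0 in either library gave no ratio. A fold of 1.5 between genotypes and of 2 between stages counted as passed. Named singly were the members, up to 4 genes per list past the fold, paralogues and partners of members, the 3 nearest profiles and *Stat3*. A few genes that this rule takes in are not reported here. *Ddx3y* and *Gm10485* were named after their values or positions were seen. Computations used Python 3.11.15, numpy 2.4.6 and pandas 2.3.3, with figures by matplotlib 3.10.9, and were tested on simulated data. Alternatives were pseudocounts of 0.1 and 1, 3 scalings, a minimum of 5 FPKM or none, and another fold. A scaling without small RNA entries and a centring by length class were added once the data had been seen.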

Additional observations from a re-analysis of the deposited data

Results flagged for a closer look

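*Uhrf1* was picked out because its genotype ratio went in opposite directions at the 2 stages. Cells of the *Stat3* cKO stood at 0.83 relative to CTL at E11 and at -0.94 at E14 on the log2 scale, a difference of -1.77. The same 4 values give opposite stage ratios, 1.42 for CTL and -0.35 for *Stat3* cKO, with the same difference of -1.77. It ranged from -2.07 to -1.55 over 7 alternatives.

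*Eed* was picked out because its stage ratio was 0.33 in CTL and -0.41 in *Stat3* cKO, a difference of -0.736. The ratio in CTL kept its sign in 3 of 7 alternatives and reached -0.23 at the lowest. Neither difference was tested, as there was 1 library per group.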

How the results depend on the processing

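No paired analysis was possible because the labels give no replicate numbers, and leaving out a library would empty its group. A fit of genotype with stage as a block was not run. Of 280 ratios of single members under an alternative, 221 stayed within 0.25 of the value reported on the log2 scale and 59 moved further. With the number of members past the fold being 1 at E14 between genotypes, it was 2 with the all-gene median set to 0, with upper-quartile scaling, without small RNA entries and by length class, 3 with a common library sum, and 0 at 2-fold. For E11, 2 members became 1 with a pseudocount of 1 or a minimum of 5 FPKM, 0 at 2-fold, and 3 with a common library sum (*Ezh2* added). In CTL, 4 members past the stage fold became 2 with a pseudocount of 1 (*Uhrf1* and *Tet3*), 3 by length class or with a minimum of 5 FPKM, 5 with the all-gene median set to 0 or upper-quartile scaling, and 6 at 1.5-fold. In *Stat3* cKO, 2 became 4 with upper-quartile scaling or without small RNA entries, 10 with a common library sum, 1 by length class and 5 at 1.5-fold. The median stage ratio of the members in CTL went from -0.25 to -0.62 with upper-quartile scaling, -0.80 with a common library sum and -0.73 without small RNA entries. In *Stat3* cKO it went from -0.62 to -1.47 and -0.94 in the latter pair, and the median difference of stage ratios went from -0.42 to -0.72 with a common library sum, -0.26 with the all-gene median set to 0 or without small RNA entries, -0.20 with upper-quartile scaling and -0.25 by length class. Small RNA entries held from 40.4% to 58.9% of the FPKM sum of a library, and a common library sum moved the all-gene median stage ratio from 0.21 to -0.34 in CTL and from 0.06 to -0.80 in *Stat3* cKO. It became -0.16 and -0.09 with upper-quartile scaling and -0.27 in both without small RNA entries, and the genotype medians moved most at E11, from 0.06 to 0.29 with a common sum. The depth is unknown and limits the lowest member, *Dnmt3b*, at 0.905 to 1.99 FPKM.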

Other observations

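Genes that PRC2 and DNA methylation are known to keep silent were counted as 2 lists. Both lists were chosen as genes known to be silent, so low counts here follow from the choice and are not a result. Of 20 Polycomb-silenced regulators, 2 had a mean of at least 1 FPKM, where 12449 of all 21091 entries did. *Foxa2*, a floor plate regulator, had 2.93 FPKM in CTL against 3.39 in *Stat3* cKO at E11, and 0.123 against 0.0728 at E14. *Cdkn2b*, a cell cycle inhibitor, had 5.63, 1.53, 2.80 and 2.24 FPKM, a log2 ratio of -1.88 between genotypes at E11. Its neighbour *Cdkn2a* stayed under the minimum, with 0.449, 0.0468, 1.30 and 0.508 FPKM. Of 14 germline genes silenced by DNA methylation, 0 passed the minimum, and the highest, *Brdt*, had 1.23, 1.45, 0.598 and 0.685 FPKM.

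Among 9 genes of H3K9 methylation and its readers, 0 passed 1.5-fold between genotypes at either stage. Over all genes, 5.82% were higher and 7.67% lower by that fold at E14, and 2.18% and 3.66% at E11. All 9 were above CTL at E11 (median log2 ratio 0.27), as 61.8% of all genes were. At E14, 7 of 9 were below CTL (median -0.15, against -0.08 over all genes, 39.9% of which were above CTL). *Suv39h1* was at least 2-fold higher at E14 in CTL (13.9 and 29.6 FPKM).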
